A study of Mus musculus with 68 samples.

Results

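The subcortical maternal complex is a protein assembly that lies beneath the membrane of the mouse oocyte and early embryo. Its transcripts were followed through embryos made by somatic cell nuclear transfer (SCNT), as Nlrp5, Ooep, Tle6, Khdc3, Padi6, Nlrp2 and Zbed3, 7 of the 24421 reference gene symbols listed in every expression table. The genes were taken by symbol, and each had 1 entry at 1 position in every table.

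Oocytes make these transcripts while they grow, store them, and pass them with their proteins to the embryo, in which maternal RNA is removed as the embryo's own genome is switched on. NLRP5 (also called MATER), OOEP (FLOPED) and TLE6 form the core of the complex, and KHDC3 (FILIA) binds to it. PADI6, a member of the peptidylarginine deiminase family, is needed for the lattices that fill the oocyte cytoplasm, NLRP2 is a relative of NLRP5, and ZBED3 is a zinc finger protein that binds the Wnt pathway scaffold AXIN. Oocytes without Nlrp5, Ooep, Tle6 or Padi6 can be fertilized, but the embryos stop at early cleavage.

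RNA was sequenced from cumulus cells (CC), the somatic cells around the oocyte that were the nuclear donors, and from SCNT embryos, in which a cumulus cell was injected into an enucleated oocyte of BDF1 mice and activated with SrCl2 in the presence of cytochalasin B. The untreated groups were CC with 3 libraries, the 4-cell stage (4C) with 5, and 6 h and 14 h post activation (6 hpa, 14 hpa), early and late 2-cell (E2C, L2C), 8-cell (8C), morula, and, from blastocysts, the trophectoderm (TE) and the inner cell mass (ICM), with 6 each. A second set held the ICM and TE of fertilized embryos of C57BL/6j parents, thus of another strain, injected as zygotes with a morpholino (MO) targeted at Max or Mcrs1, or left as control, with 2 libraries in each of 6 groups. The control libraries of that set carry the treatment label untreated, whereas the protocol names a random control MO. The paper gives different concentrations for the Max, Mcrs1 and control MO, so target and injected dose cannot be told apart. Each Smart-seq2 reaction took 10 blastomeres, the ICM and TE were parted by micromanipulation, and the labels do not say whether numbered replicates came from separate collections of embryos, so p-values measure only the spread between these libraries.

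The libraries held between 1.00 and 5.17 aligned gigabases, and between 6177 and 11771 genes at 1 or more TPM (a share of the library's transcripts, corrected for transcript length). The TPM column was scaled to the loci assembled in each library, of which reference genes took between 30.4% and 90.9% in the SCNT and CC libraries and between 85.5% and 94.4% in the fertilized ones. Falls, rises and percentages left are therefore those of a share of each library. The amount of a transcript per embryo was not measured. As a check of the labels, the summed TPM of 16 cumulus markers lay between 5962 and 6594 in CC and between 25.1 and 39.5 at 6 hpa, and that of 16 oocyte markers between 8.29 and 12.8 in CC and between 18560 and 38732 at 6 hpa. In such bulk samples, fewer cells of a type and less RNA per cell cannot be told apart. The protocol captured RNA with a polyadenylated tail, so the values stand for that RNA, and changes of tail length were not measured.

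In mm10 coordinates of the deposited tables, Nlrp5 lies on the plus strand of chr7 (start 23385889, end 23441923) and Nlrp2 on the minus strand of the same chromosome (start 5298547, end 5351035). Khdc3 (chr9, plus strand, start 73102398, end 73104443) and Ooep (chr9, minus strand, start 78376903, end 78378588) are 5.27 megabases apart. Tle6 lies on chr10 (minus strand, start 81590905, end 81600900), Padi6 on chr4 (minus strand, start 140727355, end 140742643) and Zbed3 on chr13 (plus strand, start 95323605, end 95337842). These spans run from the first to the last base of each gene and hold its exons and introns. Strand was not stated to be used, 494 bases of Nlrp2 overlap a gene on the other strand, and 126 bases of Zbed3 overlap the small nucleolar RNA gene Snora47 on the same strand.

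The 250 bases before the annotated start are shown for the pair with the most similar profile, Nlrp5 and Nlrp2, and for Ooep and Khdc3, which were higher in the TE and in the ICM, respectively, than in morulae. They are RefSeq sequences of GRCm38.p6, which has the coordinates of mm10, 5′ to 3′ on the strand of the gene. Capitals mark every CANNTG, the E-box core that basic helix-loop-helix factors such as FIGLA and MAX recognise.
Nlrp5 (chr7:23385639-23385888, plus strand): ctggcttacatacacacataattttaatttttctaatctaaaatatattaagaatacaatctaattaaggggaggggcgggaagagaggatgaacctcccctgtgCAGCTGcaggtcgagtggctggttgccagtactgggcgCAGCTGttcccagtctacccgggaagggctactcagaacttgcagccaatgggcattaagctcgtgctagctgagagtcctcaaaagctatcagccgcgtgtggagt
Nlrp2 (chr7:5351036-5351285, minus strand): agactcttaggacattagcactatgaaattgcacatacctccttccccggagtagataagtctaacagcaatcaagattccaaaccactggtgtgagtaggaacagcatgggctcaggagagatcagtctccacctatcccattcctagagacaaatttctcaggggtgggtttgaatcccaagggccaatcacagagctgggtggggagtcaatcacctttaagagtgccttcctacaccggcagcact
Ooep (chr9:78378589-78378838, minus strand): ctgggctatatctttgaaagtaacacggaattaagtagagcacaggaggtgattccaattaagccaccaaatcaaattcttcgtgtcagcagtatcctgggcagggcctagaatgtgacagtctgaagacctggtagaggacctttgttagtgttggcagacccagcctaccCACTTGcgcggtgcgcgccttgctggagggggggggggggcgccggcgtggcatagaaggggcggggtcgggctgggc
Khdc3 (chr9:73102148-73102397, plus strand): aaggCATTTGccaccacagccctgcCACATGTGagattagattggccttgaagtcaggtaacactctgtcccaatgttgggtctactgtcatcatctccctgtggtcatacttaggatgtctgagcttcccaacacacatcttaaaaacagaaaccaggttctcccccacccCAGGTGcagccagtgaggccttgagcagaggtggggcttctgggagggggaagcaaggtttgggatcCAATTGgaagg

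CANNTG reads the same on both strands and was present in 6 of 7 members, all but Nlrp2, and in 66.2% of 32817 promoter windows of this length. The numbers of matches were 2 in Nlrp5, 1 in Ooep, 2 in Tle6, 5 in Khdc3 with one pair overlapping, 2 in Padi6 and 3 in Zbed3. CACGTG, the form that MAX dimers prefer and itself a CANNTG, was found in Tle6 alone with 2 matches, against 6.02% of all windows. TAATTG, read on both strands as a form of the element of the oocyte factor NOBOX, was found in Ooep alone with 1 match, against 7.17% of all windows. Other forms of this element were not searched. TATAAA, read on both strands, was found in 0 of 7 members and in 12.4% of all windows. A match is a description of the letters and not of a bound site.

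Each of these transcripts was more abundant in every 1-cell SCNT library at 6 hpa than in any cumulus cell library, where Tle6 and Zbed3 reached 6.37 and 6.60 TPM and the other 5 genes at most 1.03 TPM. Nlrp5, the scaffold of the complex, was listed at 0, 0.0186 and 0 TPM in the 3 CC libraries and at 171 (lowest), 180 (median) and 293 TPM (highest) at 6 hpa. Ooep was at 0.359, 0.0672 and 0.527 TPM in CC and at 248, 293 and 404 TPM at 6 hpa. No library of either gene in CC came near the range at 6 hpa.

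Tle6, a relative of the Groucho co-repressors, was at 6.37, 1.30 and 4.33 TPM in CC and at 30.5, 60.5 and 85.5 TPM at 6 hpa. Khdc3, a KH domain protein, was at 0.500, 1.03 and 0.572 TPM in CC and at 4.93, 37.8 and 44.6 TPM at 6 hpa. For both genes the lowest library at 6 hpa lay above the highest in CC, for Khdc3 by the narrowest margin, since replicate 1 stood far below the other 5 libraries.

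Padi6 was listed at 0 in all 3 CC libraries and at 35.2, 110 and 129 TPM at 6 hpa. Nlrp2 was listed at 0, 0.0768 and 0 TPM in CC and at 34.3, 40.1 and 43.1 TPM at 6 hpa. Zbed3 was at 6.60, 4.37 and 0.465 TPM in CC and at 1511, 2264 and 2601 TPM at 6 hpa. Of the 7 genes, Nlrp2 had the smallest and Khdc3 the largest SD among the 6 hpa libraries relative to the mean.

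All 7 genes were higher at 6 hpa than in CC, where 61.4% of the 12084 genes tested were called in either direction and 25.8% higher (adjusted p below 0.05 and at least 2-fold). The log2 change, here always the difference of group means of log2(TPM + 1), was 9.13 ± 0.84 (SE, adjusted p = 5.34e-14) for Zbed3 and 7.87 ± 0.44 (adjusted p = 1.71e-22) for Ooep. It was 7.60 ± 0.34 (adjusted p = 1.92e-26) for Nlrp5 and 5.30 ± 0.27 (adjusted p = 2.55e-24) for Nlrp2. The smallest changes were those of Khdc3, 4.10 ± 0.83 (adjusted p = 2.32e-05), and Tle6, 3.65 ± 0.77 (adjusted p = 4.57e-05), the latter with the highest level in CC. Padi6 had an adjusted p of 7.81e-12 and is given no fold, since it was listed at 0 in CC. The median log2 change of the 7 was 6.52, beside -0.28 over all genes tested. This median is set by Padi6 and so by the 1 added to each TPM, and no fold is read from it. All 7 passed the filter on mean TPM through the groups in which they were high, so nothing is read from the count.

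At 6 hpa Zbed3 ranked 42 of 24421 genes by mean TPM, with 2226 ± 392 TPM (SD, n = 6), and made up 70.6% to 78.2% of the summed TPM of the 7 genes in each library. Ooep followed with 308 ± 56.9 TPM (rank 348) and Nlrp5 with 199 ± 46.8 TPM (rank 530), and their ranges overlapped. Padi6 with 98.2 ± 33.9 TPM, Tle6 with 59.4 ± 23.3 TPM, Nlrp2 with 39.5 ± 3.14 TPM and Khdc3 with 33.3 ± 14.9 TPM came next, and each overlapped its neighbour in this order. TPM is a level per transcript length, so the order compares genes within a library.

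**Figure D1:**
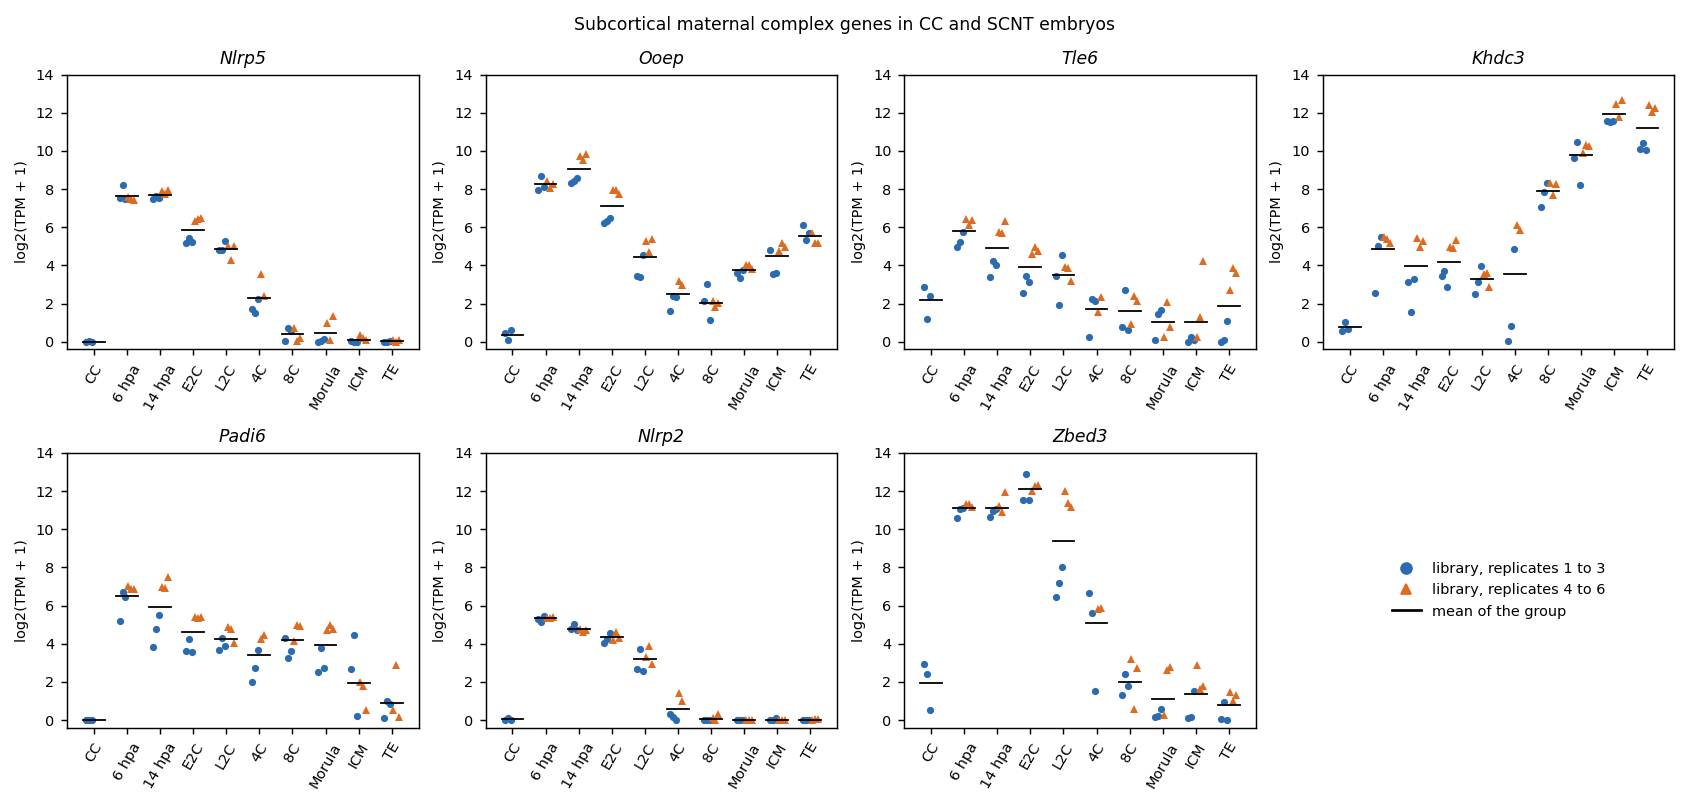
Each panel shows 1 gene, with log2(TPM + 1) on the vertical axis and the CC and 9 SCNT groups on the horizontal axis, circles for replicates 1 to 3, triangles for replicates 4 to 6 and a line at the group mean. Nlrp5 and Nlrp2 fall to near 0 by 8C, Zbed3 falls to 0.506 to 8.30 TPM there, Khdc3 climbs from 8C on, Ooep dips at 4C and 8C and is higher in ICM and TE, and at L2C the Zbed3 triangles (2312 to 4170 TPM) lie above the circles (85.3 to 258 TPM).

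Between 6 and 14 hpa, when the embryo still has 1 cell, 0 of 7 members were called, where 11.2% of genes were called, and 2 had an unadjusted p under 0.05. Nlrp2 was the more uniform of these, at 23.9, 25.9 and 32.4 TPM (lowest, median, highest) at 14 hpa, with every library below every 6 hpa library, and its log2 change was -0.55 ± 0.22 (adjusted p = 0.0847). The other was Ooep, at 317, 554 and 918 TPM at 14 hpa, with a log2 change of 0.81 ± 0.36 (adjusted p = 0.141). Its replicates 4 to 6 held 731 to 918 TPM and its replicates 1 to 3 held 317 to 377 TPM, so that the upper 3 libraries stood clear of all 6 hpa libraries. Within replicates 4 to 6 the log2 change of Ooep was 1.44 (adjusted p = 6.10e-06), and within replicates 1 to 3 it was 0.18 (adjusted p = 0.998). No label names these sets, which were seen in the data, so p-values within them, here and below, only describe the split. With the replicate number as a block, which pairs these groups by the correlation of their deviations, the adjusted p of Ooep was 0.0694. Libraries of other numbers within the same set were nearly as alike (median correlation 0.263) as those of the same number (0.272). Nlrp5 and Zbed3 held 105% and 104% of their 6 hpa means at 14 hpa.

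By E2C, 5 of 7 members were lower than at 6 hpa, where 20.1% of genes were called in either direction and 8.87% lower. Nlrp5 was at 34.9, 61.1 and 89.7 TPM, below every 6 hpa library, with a log2 change of -1.76 ± 0.28 (adjusted p = 2.24e-06). Padi6 was at 11.0, 28.6 and 41.9 TPM with a log2 change of -1.92 ± 0.57 (adjusted p = 0.00963), and its range overlapped that at 6 hpa with replicate 1 the low library there. Tle6 was at 4.82, 16.7 and 30.2 TPM, just below the lowest 6 hpa library, with a log2 change of -1.90 ± 0.63 (adjusted p = 0.0207). Ooep was at 74.4, 150 and 248 TPM (-1.14 ± 0.36, adjusted p = 0.0144) and Nlrp2 at 15.7, 18.2 and 23.8 TPM (-1.004 ± 0.22, adjusted p = 3.50e-04), both close to the 2-fold limit. Without E2C replicate 1 the number called was 2, since Ooep, Tle6 and Nlrp2 were no longer called, and without E2C replicate 2 it was 3. The fall of Nlrp5 and Ooep was also called against 14 hpa, with log2 changes of -1.85 ± 0.28 (adjusted p = 4.82e-06) and -1.94 ± 0.36 (adjusted p = 1.50e-04), in a step in which 6.00% of genes were called.

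Zbed3 was the exception in direction at E2C. It was at 2998, 4512 and 7664 TPM, above every 6 hpa library, and its mean of 4635 TPM ranked 14 of 24421 genes. Its log2 change of 1.001 ± 0.69 had an adjusted p of 0.327, so the difference was not called. Khdc3 at E2C was at 6.19, 20.7 and 38.8 TPM and overlapped its 6 hpa range (-0.65 ± 0.68, adjusted p = 0.561).

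At L2C, the stage at which the major wave of genome activation takes place in normal mouse embryos, each of the 7 members was lower than at 6 hpa, where 46.4% of genes were called in either direction and 15.7% lower. The median log2 change of the 7 was -2.26, beside 0.37 over all genes tested. As in the comparison with CC, the members passed the filter through the groups in which they were high. Nothing is therefore read from the counts of members lower than at 6 hpa, here or at E2C, 4C and later stages. Ooep was at 9.63, 23.8 and 40.9 TPM, with the largest log2 change, -3.79 ± 0.36 (adjusted p = 3.24e-13). Nlrp5 was at 18.6, 29.0 and 38.6 TPM (-2.74 ± 0.28, adjusted p = 3.50e-12) and Nlrp2 at 5.03, 7.76 and 13.7 TPM (-2.14 ± 0.22, adjusted p = 3.21e-12). Neither of these ranges touched that at 6 hpa.

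Tle6 was at 2.86, 11.9 and 22.0 TPM at L2C (-2.33 ± 0.63, adjusted p = 0.00154) and Padi6 at 11.5, 17.4 and 28.0 TPM (-2.26 ± 0.57, adjusted p = 7.34e-04), and both lay below their 6 hpa ranges. Khdc3 was at 4.70, 9.15 and 14.7 TPM, with a log2 change of -1.59 ± 0.68 (adjusted p = 0.0447). Its call was lost, with adjusted p between 0.0509 and 0.0879, when any one of 5 libraries at 6 hpa (all but replicate 1) or of L2C replicates 1, 2, 4 and 6 was left out.

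Zbed3 split at L2C. Replicates 1 to 3 were at 85.3, 146 and 258 TPM and replicates 4 to 6 at 4170, 2648 and 2312 TPM, so that the latter lay at or above the 6 hpa level. The log2 change over the 6 libraries was -1.73 ± 0.69 (adjusted p = 0.0308), within replicates 1 to 3 it was -3.70 (adjusted p = 5.94e-04), and within replicates 4 to 6 it was 0.25 (adjusted p = 0.745). Without L2C replicate 1, 2 or 3, or without 6 hpa replicate 4, the gene was not called, with adjusted p of 0.156, 0.122, 0.0877 and 0.0503. At this stage the summed oocyte markers were at 1676 to 2973 TPM in replicates 1 to 3 and at 9798 to 14386 TPM in replicates 4 to 6, and reference genes took 30.4% to 51.8% and 57.8% to 61.8% of the assembled TPM. The part of these differences in the Zbed3 result was not tested.

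**Figure D2:**
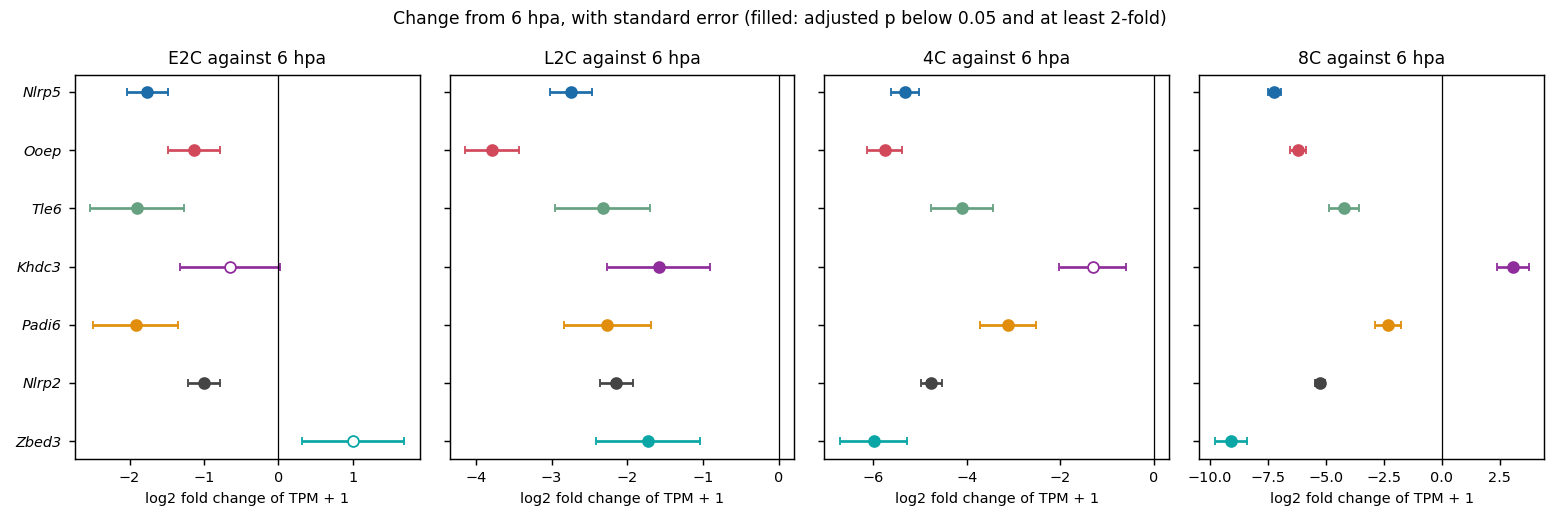
Log2 change of TPM + 1 from 6 hpa, on its own horizontal scale in each panel, for E2C, L2C, 4C and 8C, with the standard error as bars, and filled points for genes called. At L2C all 7 points are filled and Ooep lies farthest from 0 at -3.79, and at 8C Khdc3 alone lies to the right of 0.

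At 4C, 6 of 7 members were lower than at 6 hpa, where 61.0% of genes were called in either direction and 30.1% lower. Zbed3 was at 102, 47.5, 1.92, 56.5 and 57.0 TPM in replicates 1 to 5, a log2 change of -5.99 ± 0.72 (adjusted p = 2.06e-10) that left 2.38% of its 6 hpa mean. Ooep was at 2.08, 4.22, 4.11, 7.99 and 6.78 TPM (-5.75 ± 0.37, adjusted p = 1.14e-19) and Nlrp5 at 2.30, 1.88, 3.66, 10.9 and 4.33 TPM (-5.32 ± 0.29, adjusted p = 1.41e-22), with 1.64% and 2.32% of their 6 hpa means left. No 4C library of these 3 genes reached the 6 hpa range.

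Nlrp2 was at 0.253, 0.102, 0, 1.69 and 0.969 TPM at 4C, a log2 change of -4.76 ± 0.23 (adjusted p = 6.27e-25), and was thus at or below 1 TPM in 4 of 5 libraries. Tle6 was at 0.184, 3.81, 3.33, 1.96 and 4.10 TPM (-4.11 ± 0.66, adjusted p = 2.91e-07). Padi6 kept the largest share among the genes that were called, 12.03% of its 6 hpa mean, at 2.97, 5.56, 11.7, 17.8 and 21.03 TPM (-3.11 ± 0.60, adjusted p = 1.00e-05).

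Khdc3 parted from the others at 4C. It was at 0.0219, 0.788, 27.9, 69.4 and 56.4 TPM, so that replicates 1 and 2 lay below and replicates 4 and 5 above all 6 hpa libraries. The log2 change from 6 hpa was -1.31 ± 0.71 (adjusted p = 0.101), and the change from L2C, 0.28 ± 0.71 (adjusted p = 0.793), changed sign when 4C replicate 3, 4 or 5 was left out (-0.05, -0.37 and -0.30). Within replicates 1 to 3 the change from 6 hpa was -2.44 (adjusted p = 0.0155) and without 6 hpa replicate 1 it was -1.77 (adjusted p = 0.0282), both called, as it was without 4C replicate 4 or 5 (adjusted p = 0.0156 and 0.0217). Within replicates 4 to 6 it was 0.64 (adjusted p = 0.0337), short of 2-fold. Reference genes took 44.0% to 53.1% of the assembled TPM in 4C replicates 1 to 3 and 73.5% to 75.6% in replicates 4 and 5, and the part of this difference in the Khdc3 values was not tested.

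Taken step by step, the fall was spread unevenly over the 2-cell and 4-cell stages. From E2C to L2C, where 34.7% of genes were called, Ooep (-2.65 ± 0.36, adjusted p = 2.61e-08), Zbed3 (-2.73 ± 0.69, adjusted p = 0.00108) and Nlrp2 (-1.14 ± 0.22, adjusted p = 2.51e-05) fell, and Nlrp5 was just short of 2-fold (-0.98 ± 0.28, adjusted p = 0.00375). Within replicates 4 to 6 the Zbed3 value was -0.67 (adjusted p = 0.347). From L2C to 4C, where 38.3% of genes were called, the same 3 genes fell again, together with Nlrp5 and Tle6. The log2 changes of this step were -4.26 ± 0.72 for Zbed3 (adjusted p = 2.37e-06), -2.62 ± 0.23 for Nlrp2 (adjusted p = 4.75e-14), -2.58 ± 0.29 for Nlrp5 (adjusted p = 1.62e-10), -1.97 ± 0.37 for Ooep (adjusted p = 1.85e-05) and -1.78 ± 0.66 for Tle6 (adjusted p = 0.0251). The Tle6 call was lost without L2C replicate 3 (adjusted p = 0.0627) or without 4C replicate 1 (adjusted p = 0.0992).

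By 8C, where 67.3% of genes were called against 6 hpa, Nlrp5 was below 1 TPM in all 6 libraries (0.0270, 0.323 and 0.681 TPM as lowest, median and highest), and Nlrp2 was listed at 0 in 4 of 6 and at most at 0.270 TPM. Zbed3 was at 0.506, 3.42 and 8.30 TPM, 0.171% of its 6 hpa mean. From 4C to 8C, where 20% of genes were called, Nlrp5 (-1.90 ± 0.29, adjusted p = 2.55e-06) and Zbed3 (-3.09 ± 0.72, adjusted p = 0.00120) fell further. Ooep and Tle6 were already near their lowest levels, at 1.24, 3.19 and 7.09 TPM and at 0.517, 2.19 and 5.57 TPM, with changes from 4C of -0.45 ± 0.37 (adjusted p = 0.438) and -0.11 ± 0.66 (adjusted p = 0.948).

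Padi6 kept a larger share of its 6 hpa mean at 8C and in morulae than the other 5 members that were lower there. It was at 8.41, 17.7 and 30.4 TPM at 8C and at 4.65, 19.2 and 30.4 TPM in morulae, 19.5% and 17.9% of its 6 hpa mean, and no step from L2C to the morula was called for it (adjusted p between 0.267 and 0.842). It fell from the morula to the ICM, where it was at 0.175, 2.73 and 21.2 TPM (-1.96 ± 0.57, adjusted p = 0.00730), and to the TE, where it was at 0.0687, 0.604 and 6.27 TPM (-2.99 ± 0.57, adjusted p = 5.58e-05), in steps in which 24.0% and 22.0% of genes were called. Within replicates 1 to 3 the Padi6 change to the ICM was -0.53 (adjusted p = 0.633).

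**Figure D3:**
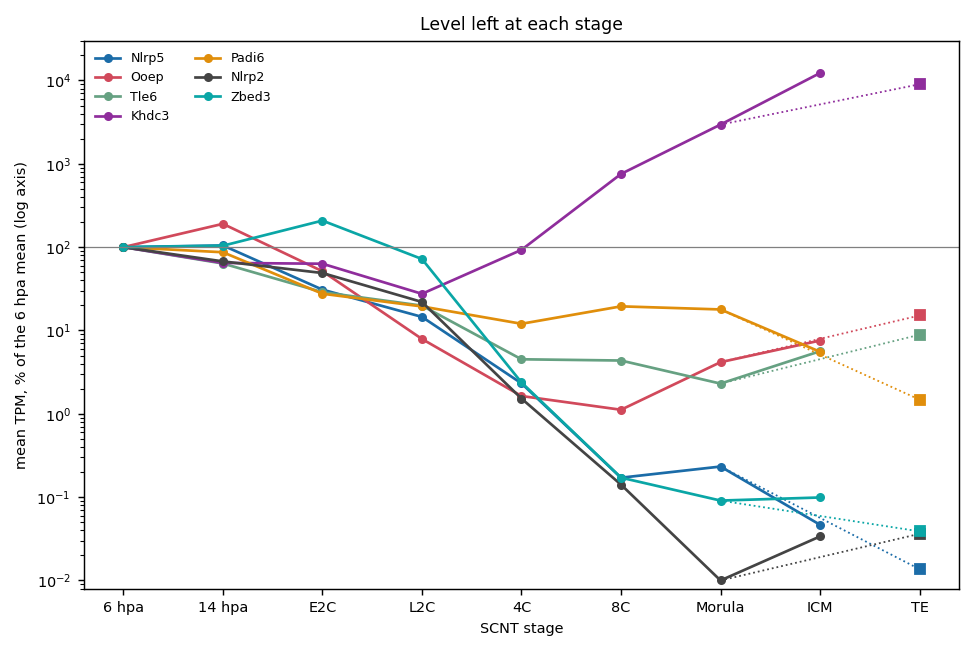
Mean TPM of each gene as a percentage of its 6 hpa mean, on a log axis, by SCNT stage, with squares and dotted lines for TE, and values below 0.01% drawn at 0.01%. Ooep is lowest at L2C with 7.91% left, 6 lines end below 20% and Khdc3 ends at 12295% in the ICM.

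Whether members changed by different amounts was tested on the ratio of 2 genes within each library, for the 21 pairs at L2C and the 21 at 4C, by a two-sided exact permutation test with adjustment over the 42 tests. The smallest p this can give is 0.00216 at L2C and 0.00433 at 4C, and both comparisons share the 6 hpa libraries. At L2C, 6 of 21 pairs passed and all 6 held Ooep, which fell more than every other member. It fell further than Nlrp5, the nearest, by 1.04 on the log2 scale (exact permutation, adjusted p = 0.0182), further than Padi6 by 1.52 (0.0182), Nlrp2 by 1.64 (0.0182), Khdc3 by 2.20 (0.0182), Zbed3 by 2.06 (exact permutation, adjusted p = 0.0248) and Tle6 by 1.46 (exact permutation, adjusted p = 0.0280). The ratio to Tle6 lost its call without any 1 of 8 libraries, with adjusted p between 0.0519 and 0.0559.

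At 4C, 7 of 21 pairs passed in the same exact test. Ooep fell more than Tle6 by 1.65, Padi6 by 2.64, Khdc3 by 4.44 and Nlrp2 by 0.99, and Nlrp5 fell more than Padi6 by 2.21 and Khdc3 by 4.01 (exact permutation, adjusted p = 0.0182 for each). Nlrp2 fell more than Padi6 by 1.65 (exact permutation, adjusted p = 0.0280). Ooep and Nlrp5, which encode partners in the core, did not pass at 4C (0.43, exact permutation, adjusted p = 0.159), and no pair with Zbed3, whose libraries spread from 1.92 to 102 TPM, passed there. Without 4C replicate 1 the number of pairs was 12. The order of Ooep and Nlrp2 depends on the pseudocount, since Nlrp2 was near 0 at 4C, and with 0.1 in place of 1 the difference was 0.52 in the other direction.

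Khdc3 was the 1 member whose level climbed far above that at 6 hpa. It was at 134, 270 and 319 TPM at 8C (lowest, median, highest), at 300, 1072 and 1427 TPM in morulae, at 2924, 3258 and 6542 TPM in the ICM and at 1047, 2781 and 5377 TPM in the TE. No 8C library overlapped those at 6 hpa or at 4C. The rise from 4C to 8C was 4.38 ± 0.71 (adjusted p = 6.95e-06), that from 8C to the morula was 1.87 ± 0.68 (adjusted p = 0.0534), and that from the morula to the ICM was 2.13 ± 0.68 (adjusted p = 0.0141), against 12.6% of genes called from 8C to the morula. Morula replicate 3, with 300 TPM the lowest, bears on both of the latter, and without it they were 2.19 (adjusted p = 0.0272) and 1.82 (adjusted p = 0.05001, no longer called). The step to the TE, 1.42 ± 0.68 (adjusted p = 0.124), was not called.

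Against 6 hpa, Khdc3 was higher at 8C, in morulae, in the ICM and in the TE, by 3.07 ± 0.68 (adjusted p = 7.14e-05), 4.94 ± 0.68 (adjusted p = 5.07e-09), 7.07 ± 0.68 (adjusted p = 1.10e-13) and 6.36 ± 0.68 (adjusted p = 3.69e-12), and the other 6 members were lower in each. In these comparisons 67.3%, 70.0%, 67.5% and 68.7% of genes were called, with 36.1%, 41.5%, 37.1% and 40.4% higher and 31.2%, 28.5%, 30.4% and 28.3% lower. Khdc3 ranked 10 of 24421 genes in the ICM, with 4095 ± 1560 TPM (SD, n = 6), and 21 in the TE, with 3002 ± 2045 TPM (SD, n = 6). It made up at least 98.8% of the summed TPM of the 7 genes in each ICM library and at least 94.2% in each TE library. ICM replicates 1 to 3 held 2924 to 3061 TPM and replicates 4 to 6 held 3454 to 6542 TPM, and in the TE the same libraries held 1047 to 1375 and 4187 to 5377 TPM.

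Ooep came back at a lower level. From 3.44 ± 1.96 TPM (SD, n = 6) at 8C it rose to 12.8 ± 2.43 TPM in morulae (1.72 ± 0.36, adjusted p = 4.25e-04), with no overlap between the groups. It was at 10.8, 26.5 and 34.9 TPM in the ICM (0.70 ± 0.36 from the morula, adjusted p = 0.142) and rose in the TE to 34.9, 45.0 and 67.5 TPM (1.76 ± 0.36 from the morula, adjusted p = 1.29e-04). The level in the TE was 15.1% of that at 6 hpa.

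The neighbour of Ooep, Dppa5a, a KH domain gene of pluripotent cells on the same strand whose end lies 8704 bases away, also differed between these groups. It was at 2966 to 3315 TPM at 8C, at 2388 to 5313 TPM in morulae, at 9897 to 13309 TPM in the ICM and at 9499 to 15750 TPM in the TE. Both genes were joined in 1 assembled locus in 12 of 68 libraries, among them 8C replicate 3, morula replicate 4 and 4 SCNT TE libraries, while the reference entries used here stay separate. When the assembled loci over each gene were used instead, the rise of Ooep at the morula was 1.42 (adjusted p = 0.536). The joined loci stood at 2996 TPM in 8C replicate 3 and 4947 TPM in morula replicate 4. In the other libraries the assembled Ooep loci were at 2.58 to 7.09 TPM at 8C and at 9.11 to 15.4 TPM in morulae. Whether reads of the neighbour add to the Ooep value was not tested.

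TE and ICM of SCNT blastocysts were compared directly, where 5.79% of genes were called. The number of members called was 0, with 1 at an unadjusted p under 0.05, which was Ooep at 1.06 ± 0.36 (adjusted p = 0.0634). With the replicate number as a block, which pairs these groups by the same rule, Ooep was called (adjusted p = 0.0253). Libraries of other numbers within replicates 1 to 3 or 4 to 6 were as alike (median correlation 0.191) as those of the same number (0.170). The block may thus stand for these sets and not for paired libraries. ICM replicates 1 to 3 stood apart, with 6177 to 6771 genes at 1 TPM or more and 74.6% to 78.9% of TPM in reference genes, beside 9011 to 10032 genes and 89.2% to 89.4% in replicates 4 to 6, and the part of this in the Ooep result was not tested. Its difference was 1.72 (adjusted p = 0.0106) within replicates 1 to 3 and 0.39 (adjusted p = 0.219) within replicates 4 to 6, and it was called without ICM replicate 5 (1.20, adjusted p = 0.0316) or 6 (1.158, adjusted p = 0.0471). The 10 TE markers summed to 2053 to 8537 TPM in ICM libraries and to 5166 to 16351 TPM in TE libraries, and the sums of both fractions overlapped. The 10 ICM markers summed to 103 to 362 TPM in TE libraries. They summed to 267 TPM in ICM replicate 3 and to 551 to 868 TPM in the other ICM libraries.

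Against the donor cells, where 37.9% of genes were called for the ICM and 35.8% for the TE, Khdc3 was higher by 11.17 ± 0.83 (adjusted p = 5.58e-17) in the ICM and by 10.45 ± 0.83 (adjusted p = 7.04e-16) in the TE. Ooep was higher by 4.09 ± 0.44 (adjusted p = 1.91e-11) and 5.15 ± 0.44 (adjusted p = 7.98e-15). Padi6, listed at 0 in CC, was called in the ICM (adjusted p = 0.0216), but not without ICM replicate 2 (adjusted p = 0.0811) or without any one of the CC libraries (adjusted p between 0.0593 and 0.0601). Nlrp5 and Nlrp2 were at most at 0.263 and 0.0719 TPM in any SCNT blastocyst library, and their differences from CC were not called. Tle6 and Zbed3 ranged from 0 to 18.1 TPM and from 0.0107 to 6.47 TPM there and overlapped CC.

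Replicates 1 to 3 and replicates 4 to 6 were set side by side in each SCNT group. Both sets did not overlap for 3 members at 6 hpa, 5 at 14 hpa, 5 at E2C, 2 at L2C, 5 at 4C, 0 at 8C, 2 in morulae, 4 in the ICM and 3 in the TE, and in each of these cases replicates 4 to 6 were the higher. Over all genes tested, 28.1%, 51.8%, 40.6%, 27.7%, 38.6%, 26.0%, 24.6%, 27.9% and 32.6% did not overlap, in the same order of groups. The count of members lay near this share at L2C and in morulae, and the direction was not counted over all genes. The summed oocyte markers outside the complex also differed at 14 hpa, at 6238 to 14427 TPM in replicates 1 to 3 and 20410 to 24919 TPM in replicates 4 to 6. At 14 hpa Khdc3 was at 2.01 to 8.95 TPM in replicates 1 to 3 and at 30.04 to 42.6 TPM in replicates 4 to 6, Tle6 at 9.43 to 17.8 and 51.8 to 78.9 TPM, and Padi6 at 13.1 to 44.8 and 119 to 182.5 TPM. The sets of Nlrp2 overlapped in each group from 6 hpa to L2C. The labels name no batch, and these sets were seen in the data.

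In fertilized blastocysts, Khdc3 was again among the most abundant transcripts. It was at 4612 and 5975 TPM in the 2 control ICM libraries, where its mean ranked 5 of 24421 genes, and at 2967 and 3025 TPM in the 2 control TE libraries. Nlrp5 and Nlrp2 were at most at 1.36 and 1.74 TPM in any of the 12 libraries and failed the filter, so that 5 of 7 members were tested. Between control TE and ICM, where 2.92% of 11219 genes were called, 0 of 5 were called and 3 had an unadjusted p under 0.05. Khdc3 was lower in the TE by less than 2-fold (-0.81 ± 0.17, adjusted p = 0.0352), and Tle6 was at 38.8 and 82.1 TPM in the ICM and at 10.3 and 10.9 TPM in the TE (-2.31 ± 0.56, adjusted p = 0.0509). The third was Zbed3, at 0.744 and 45.8 TPM in the ICM and 0 and 0.527 TPM in the TE (adjusted p = 0.180).

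Ooep was higher in the ICM after Max MO. Ooep was at 21.3 and 10.6 TPM in control and at 74.8 and 79.3 TPM after Max MO, a log2 change of 2.28 ± 0.40 (adjusted p = 0.00294), and it was the only 1 of 5 members called, where 23.7% of genes were called. Tle6 was at 12.7 and 27.5 TPM after Max MO, below both controls (-1.54 ± 0.56, adjusted p = 0.0605). Dppa5a was at 3530 and 4071 TPM in control ICM and at 10116 and 10574 TPM after Max MO, and the part of this neighbour in the Ooep value was not tested.

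Tle6 was lower in the ICM after Mcrs1 MO, at 6.76 and 12.6 TPM. The log2 change was -2.49 ± 0.56 (adjusted p = 0.0206), the 1 call among 5 members, where 10.1% of genes were called. Khdc3 was at 3097 and 3378 TPM, below both controls but by less than 2-fold (-0.70 ± 0.17, adjusted p = 0.0268). The Tle6 call was lost without control replicate 2 (-1.95, adjusted p = 0.0586) and without either Mcrs1 MO library (-2.08, adjusted p = 0.138, and -2.89, adjusted p = 0.0587). Both MO comparisons share the control libraries.

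The 10 TE markers summed to 16425 TPM in control ICM replicate 1 and to 647 TPM in replicate 2, to 2801 and 5953 TPM after Max MO and to 11753 and 8233 TPM after Mcrs1 MO, and to between 15281 and 21382 TPM in the TE libraries. The 10 ICM markers summed to 1435 and 1922 TPM in control ICM, 1291 and 1236 TPM after Max MO and 505 and 1051 TPM after Mcrs1 MO, and to between 183 and 584 TPM in the TE libraries. The marker sums thus differed between the ICM libraries, and their part in the Ooep, Tle6 and Khdc3 values was not tested. Without control ICM replicate 1, the log2 changes under Max MO were -2.07 for Tle6 and -4.48 for Zbed3. Both rest on the 1 control library left, at 82.1 TPM for Tle6 and 45.8 TPM for Zbed3.

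In the TE, 0 of 5 members were called under either MO by limma, and 0 had an unadjusted p under 0.05, where 2.50% of genes were called for Max MO and 5.08% for Mcrs1 MO. Ooep was at 18.8 and 24.4 TPM in control TE, at 36.8 and 40.8 TPM after Max MO and at 26.5 and 25.1 TPM after Mcrs1 MO. The difference between TE and ICM in the response was called for 0 members and for 0% of all genes under either MO. It was -1.45 ± 0.56 for Ooep under Max MO (adjusted p = 0.319) and 2.62 ± 0.79 for Tle6 under Mcrs1 MO (adjusted p = 0.433), and with Khdc3 under Mcrs1 MO (0.54 ± 0.24, adjusted p = 0.566) these were the 3 with an unadjusted p under 0.05.

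**Figure D4:**
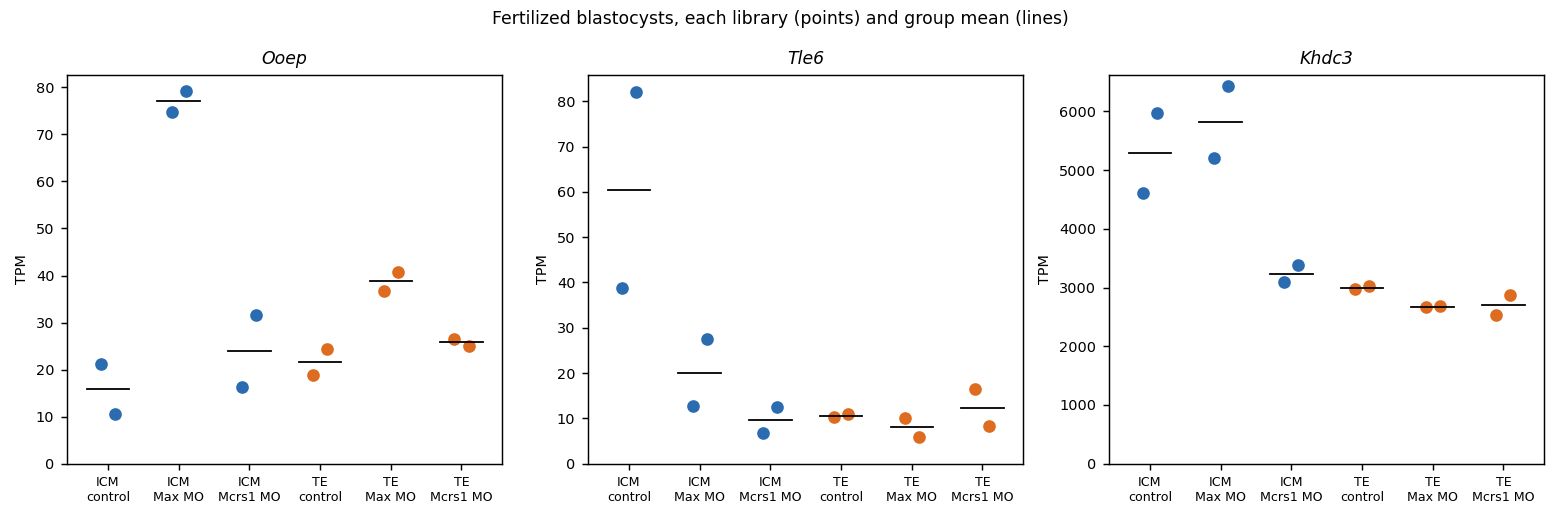
TPM of Ooep, Tle6 and Khdc3 in each of the 12 fertilized blastocyst libraries (points) by tissue and MO, with a line at the mean of the 2 libraries. Ooep is highest in the ICM after Max MO (74.8 and 79.3 TPM) and Tle6 in the control ICM (38.8 and 82.1 TPM).

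Other genes of the oocyte programme were read from lists fixed beside the members. Of 11 further oocyte Nlrp genes, 10 were in the tables, and all 10 were higher at 6 hpa than in CC (median 7.59, beside -0.28 over all genes, of which 25.8% were higher). Like the members, they passed the filter through the groups in which they were high, and 7 of the 10 were listed at 0 in every CC library, so nothing is read from this count or median. At E2C, 4 of 10 were lower than at 6 hpa (Nlrp4a, Nlrp4b, Nlrp9b and Nlrp14), beside 8.87% of all genes, and at L2C all 10, beside 15.7%, with a median of -2.86 beside -2.26 for the members and 0.37 over all genes. Nlrp4f, the most abundant, was at 607 ± 72.1 TPM (SD, n = 6) at 6 hpa and at 24.4 ± 8.25 TPM at L2C, and Nlrp9c was at 538 ± 73.9 and 176 ± 64.0 TPM. At 4C and 8C all 10 were lower, with medians of -5.52 and -7.36, beside 30.1% and 31.2% of all genes. These counts, too, concern genes that passed the filter through groups in which they were high, so nothing is read from them.

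Of 10 partners that bind the complex or act with it, 5 were higher and 4 lower at 6 hpa than in CC, where 25.8% of all genes were higher and 35.6% lower. The higher ones were Dppa3, the factor that guards maternal DNA methylation, Uhrf1 and Dnmt1, which maintain that methylation, Ybx2, which binds stored RNA, and Spin1, a reader of histone methylation. Dppa3 was at 20633 ± 2269 TPM (SD, n = 6) at 6 hpa, 6960 ± 3138 TPM at L2C and 14398 ± 985 TPM at 8C, and Spin1 fell from 17833 ± 4245 TPM at 6 hpa to 2903 ± 1473 TPM at L2C and 43.2 ± 12.7 TPM at 8C. At L2C, 4 partners were lower than at 6 hpa, namely Dnmt1, Dppa3, Spin1 and Uhrf1, and 2 higher, Ybx2 and Ywhah, where 15.7% of all genes were lower and 30.7% higher. Cdc42, Cfl1, Prkaca and Ywhah were the 4 that were lower at 6 hpa than in CC, and Axin1 was not called.

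Of 7 transcription factors of the oocyte programme, 5 passed the filter and 4 were higher at 6 hpa than in CC, beside 25.8% of all genes. Nobox was at 75.7 ± 27.8 TPM (SD, n = 6), Tbpl2 at 23.6 ± 2.95 TPM, Lhx8 at 11.9 ± 2.86 TPM and Taf4b at 11.95 ± 3.95 TPM, while Figla was at 1.09 ± 1.06 TPM and was not called. Nobox, Tbpl2 and Lhx8 were listed at 0 in every CC library and passed the filter through groups in which they were high. Nothing is therefore read from the count of factors higher than in CC. At L2C Nobox and Tbpl2 were lower than at 6 hpa and Taf4b higher. Of 22 paralogs of the members outside the complex, 11 were tested, and 6 were higher and 0 lower at L2C than at 6 hpa, beside 30.7% higher and 15.7% lower over all genes, which also stand beside the L2C counts that follow. Of 16 oocyte markers, 12 were lower at L2C (median -2.29) and all 16 at 4C. These markers also passed the filter through groups in which they were high, so nothing is read from their counts. Of 11 cumulus markers tested, 4 were higher and 1 lower at L2C, and of 10 TE markers and 7 ICM markers tested, 2 and 3 were higher and 2 and 0 lower.

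The genes whose group means followed the mean profile of the members most closely over the 10 groups were Chek1 (Pearson r = 0.989), Mtus2 (0.988), 2700029M09Rik (0.983), Hsf5 (0.983), Ankrd49 (0.983), Homer2 (0.981), Ccdc138 (0.981), Ccdc73 (0.981), Pramef12 (0.980) and Nlrc4 (0.978). These values describe 10 means that share libraries and scaling. Nlrp5 was nearest to Fbxw21 (r = 0.998), Fbxw22 (0.996) and A330093E20Rik (0.996), and Nlrp2 to 4921506M07Rik (1.000), Zkscan16 (0.999) and Nckap5 (0.999). For Zbed3 they were Ggct (0.997), C87414 (0.996) and Nlrp9c (0.996), for Tle6 2700049A03Rik (0.982), Cftr (0.981) and Usp51 (0.981), and for Padi6 Rsl1d1 (0.956), Orc6 (0.953) and Btbd10 (0.948). Ooep was nearest to Tube1 (0.970), Lmo7 (0.966) and Acat1 (0.964), and Khdc3 to Fbp2 (0.984), Spint1 (0.975) and Kif20a (0.971). Among the members themselves, Nlrp5 and Nlrp2 were closest (0.987), followed by Nlrp5 and Zbed3 (0.972), and Khdc3 ranged from -0.57 with Zbed3 to 0.06 with Ooep.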

How the data were processed

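Mouse embryo and cumulus cell RNA was measured by Smart-seq2 in 68 libraries. The authors trimmed reads with cutadapt 1.16, aligned them with HISAT2 and assembled and quantified transcripts with StringTie, as the labels and methods state. The deposited tables give FPKM and TPM per gene, and the deposited coverage signal is given beside them. TPM is scaled to the assembled loci and listed for these and reference genes together, so a column sums to more than its scale. Entries of 1 symbol were summed. These are not counts, so no count model was used, and depth was estimated as aligned bases from coverage and FPKM.

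TPM was tested as log2(TPM + 1) with limma 3.58.1 in R 4.3.3 (trended variance, Benjamini-Hochberg adjustment over all genes with a mean TPM of 1 or more). One fit held the 56 CC and SCNT libraries (12084 genes) and another the 12 fertilized libraries (11219 genes). Calls needed 2-fold or more and an adjusted p below 0.05. Ratios between members were tested by two-sided exact permutation with SciPy 1.17.1. The steps were tested on simulated data. The members and lists were chosen with earlier results of these data known. Other genes were named only from the lists or by likeness of group means.

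Same-numbered libraries deviated together, with every correlation over 0.1, between 14 hpa and 6 hpa (0.142 to 0.390) and between SCNT TE and ICM (0.130 to 0.298), and this pairing comes from the data. Libraries of other numbers within replicates 1 to 3 or 4 to 6 were as alike (medians 0.263 and 0.191). Alternatives varied the pseudocount, filter, scaling, samples in the fit, the replicate block and single libraries left out.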

Additional observations from a re-analysis of the deposited data

Results flagged for a closer look

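In groups of 5 or 6 libraries, 12 of 63 combinations of gene and group held 1 library far from the rest. The rule was Dixon's test at the 95% level, which about 1 of 20 pass by chance if values are normally distributed. It was applied to TPM, near 0 in some of these groups, so no excess is read from the count. At 6 hpa, Nlrp5 was at 293 TPM in replicate 2 and at 171 to 194 TPM in the others, and Khdc3 was at 4.93 TPM in replicate 1 and at 31.1 to 44.6 TPM in the others. At 14 hpa, Nlrp2 was at 32.4 TPM in replicate 2 (others 23.9 to 26.7 TPM) and Zbed3 at 3967 TPM in replicate 6 (others 1595 to 2335 TPM). At 4C, Nlrp5 was at 10.9 TPM in replicate 4 (others 1.88 to 4.33 TPM). At 8C, Ooep was at 7.09 TPM in replicate 2 (others 1.24 to 3.36 TPM) and Nlrp2 at 0.270 TPM in replicate 6 (others 0 to 0.0648 TPM).

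In morulae, Nlrp2 was at 0.0199 TPM in replicate 5 and listed at 0 in the others, a case in which any value above 0 must stand apart, so nothing is read from it. In the ICM, Tle6 was at 18.1 TPM in replicate 6 (others 0 to 1.46 TPM), Padi6 at 21.2 TPM in replicate 2 (others 0.175 to 5.43 TPM) and Nlrp2 at 0.0719 TPM in replicate 3 (others 0 to 0.00822 TPM). In the TE, Padi6 was at 6.27 TPM in replicate 5 (others 0.0687 to 1.02 TPM).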

How the results depend on the processing

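Numbers of members called changed as follows, and the cause was not tested. From 6 hpa to E2C, 3 instead of 5 were called with a pseudocount of 0.1, with rescaling over reference genes, with quantile scaling, with assembled loci and within replicates 4 to 6. From 8C to the morula it was 2 instead of 1 with a mean TPM of at least 5, with the replicate block, within replicates 4 to 6, with a term for replicates 1 to 3 against 4 to 6 (chosen after seeing the data) and with 2 groups alone, and 0 with assembled loci. Between SCNT TE and ICM it was 1 instead of 0 with rescaling, the block, assembled loci, that term and within replicates 1 to 3. From the morula to the ICM it was 1 with a pseudocount of 0.1 or 2 groups alone and 0 within replicates 1 to 3. Within replicates 4 to 6 it was 1 from 6 to 14 hpa, 5 from 4C to 8C and 4 from the morula to the TE. Assembled loci gave 1 from 14 hpa to E2C and 3 from L2C to 4C, and quantile scaling gave 5 from E2C to L2C. In fertilized embryos, rescaling gave 2 for Max MO in the ICM and 1 between control TE and ICM, quantile scaling gave 2 for Mcrs1 MO in the ICM and 2 between control TE and ICM, and no filter gave 0 for Mcrs1 MO. Pairs passing at 4C were 3 with a pseudocount of 0.1. The exact sign-flip test with the replicate block cannot pass and gave 0 at L2C and 0 at 4C.

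Leaving out 1 library gave 3 to 4 members from E2C to L2C and 4 to 5 from L2C to 4C. It gave 1 to 2 from 8C to the morula and from the morula to the ICM. From 6 hpa it gave 2 to 5 to E2C, 5 to 7 to L2C and 6 to 7 to 4C. For SCNT TE against ICM it gave 0 to 1, and for ICM against CC 2 to 4. Pairs passing numbered 5 to 7 at L2C and 6 to 12 at 4C. In the fertilized set, leaving out 1 library leaves 1 in its group, so no count is given.

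Some directions turned. From L2C to 4C, Khdc3 was at -0.41 with a pseudocount of 0.1, -0.17 rescaled, -0.11 with assembled loci, -1.29 within replicates 1 to 3, and -0.05, -0.37 and -0.30 without 4C replicate 3, 4 or 5 (1.15 at most, without replicate 1). With assembled loci, which can hold Dppa5a, Ooep was at 1.28 from 4C to 8C, -0.70 from the morula to the ICM and 2.55 from 6 hpa to TE. Within replicates 1 to 3, Tle6 was at -0.67 from the morula to the TE. Within replicates 4 to 6, Zbed3 was at 0.25 from 6 hpa to L2C and Khdc3 at 0.64 to 4C. Tle6 in TE against CC was at 0.09, 0.12 and 0.10 without CC replicate 1, TE replicate 1 or 2 (lowest -0.75), Zbed3 under Max MO in the ICM at 0.27 without control replicate 2 and -4.48 without replicate 1, and the ratio of Ooep to Nlrp2 at 4C at 0.52 with a pseudocount of 0.1. The replicate block also called Khdc3 from the morula to the TE (1.42, adjusted p = 0.0422) and Tle6 in the ICM against CC (-1.75, adjusted p = 0.0212). Neither comparison met the pairing rule of every correlation over 0.1, so these are not calls on paired libraries.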
